A study of Homo sapiens and Mus musculus with 47 samples.

Results

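The 42 genes described here were chosen by name as targets and partners of activating transcription factor 4 (ATF4), the transcription factor of the integrated stress response. They were matched by gene symbol, in title case for mouse, in every count table (mouse Mars was matched through its gene ID), and all 42 were present among the 57820 genes of the human tables and the 55401 genes of the mouse tables. Another mouse entry named Ddit3 overlaps the one used on the same strand, and the entry with more counts in NIH3T3 was taken. Mouse Ddit3 also overlaps Mars1 on the other strand. The rule for the list names 1 result of these data, the fall of CHAC1 in HCT116 cells, so that fall is given below as a description without a test and CHAC1 is left out of the HCT116 counts.

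In the integrated stress response, the kinases PERK, GCN2, PKR and HRI phosphorylate the initiation factor eIF2α, which lowers general translation while favouring translation of ATF4. ATF4 protein then activates genes for amino acid import and synthesis, for tRNA charging and for redox balance, together with CHOP (encoded by DDIT3), the pseudokinase TRIB3 and the phosphatase subunit GADD34 (encoded by PPP1R15A), which feed back on the pathway. Because ATF4 is controlled largely at translation, the abundance of its mRNA is not a measure of its activity.

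Chrom-seq labels RNA near a histone mark with a chromatin reader fused to 10 copies of a GCN4 tag, which recruits the peroxidase APEX2 through a single-chain antibody, and sequences the biotinylated RNA after streptavidin capture. In the Chrom-seq libraries used here, TAF3 was the plant homeodomain reader of H3K4me3, a mark of active promoters, in HCT116 cells (human colorectal carcinoma), NIH3T3 cells (mouse embryonic fibroblasts) and Neuro-2a cells (mouse neuroblastoma), and Control cells carried the tag array and APEX2 without a reader, with 3 libraries per group. In HEK293T cells (human embryonic kidney line), RNA-seq compared CBX7, the chromodomain reader of H3K27me3, with Control (3 libraries each), and a further RNA-seq experiment compared antisense oligonucleotides (ASOs) against the long noncoding RNAs SETD5-AS1 (3 libraries), LINC00641 (2 libraries) and LINC00662 (3 libraries) with a non-targeting NC ASO (3 libraries). Reader expression lasted 48 h, and labelling used 500 µM biotin-aniline for 30 min with 1 mM hydrogen peroxide for 1 min. The labels repeat that protocol for the RNA-seq libraries, but the study's methods call the HEK293T cells set against CBX7 in RNA-seq untreated. The reader, the transfection, APEX2 expression, biotin-aniline and hydrogen peroxide therefore cannot be told apart there. NC ASO libraries carry an oligonucleotide and do not stand for untreated cells. The Chrom-seq tables hold labelled RNA only, so RNA nearer to the mark and a larger amount of that RNA in the cell cannot be told apart.

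Total counts ran from 8258859 to 17558305 over the 35 libraries. Markers of each line were present, with KRT8 at 1620 to 2220 counts per 1000000 library counts (CPM) in HCT116, NEFM at 176 to 404 CPM in HEK293T, Col1a1 at 394 to 548 CPM in NIH3T3 and Stmn2 at 102 to 142 CPM in Neuro-2a, where Tubb3 had no counts. CDH17, LGALS4 and VIL1 in HCT116 and S100a4 in NIH3T3 were near 0, with no library above 0.696 CPM. CPM values here are scaled by trimmed mean of M values (TMM) within each table, so levels from different tables are not on a shared scale. Targeted RNAs were lower in their own libraries than under NC ASO, at 4.32 ± 0.386 against 53.3 ± 0.364 CPM for SETD5-AS1, 1.42 ± 0.714 against 41.0 ± 2.33 CPM for LINC00641 and 1.58 ± 0.374 against 13.4 ± 0.931 CPM for LINC00662 (mean ± SD). They also differed from NC in libraries of other ASOs, with SETD5-AS1 at 29.8 ± 1.12 CPM under LINC00641 ASO and 28.6 ± 0.688 CPM under LINC00662 ASO, and LINC00641 at 26.6 ± 2.67 CPM under SETD5-AS1 ASO. Taf3 counts, which can include the transgene, were 8425 ± 668 CPM in NIH3T3 and 1741 ± 142 CPM in Neuro-2a TAF3 libraries. Human TAF3 was 32.7 ± 0.338 CPM in TAF3 against 24.2 ± 1.35 CPM in Control libraries of HCT116. The study's TAF3 reader comes from the mouse protein, so human TAF3 counts need not include it and do not measure its expression. The library labelled Neuro-2a TAF3 replicate 1 stood apart, and results from that line are given with and without it. The study calls its replicates independent for several HEK293T comparisons, and the labels do not say whether the libraries of a group came from separate cultures, so the p-values measure the spread between these libraries.

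The ATF4 site most often described in these genes is the C/EBP-ATF response element (CARE), searched here as TGATGNAA on both strands in RefSeq windows from 250 bases before to 50 bases after a gene start (GRCh38.p14). Of the 34 members with a window, 12 (35.3%) held the motif, against 4.46% of the 27305 genes with a window. A match of these letters is a description and does not show binding. Members called below such as DDIT4, TRIB3, PCK2, SESN2, DDIT3 and PPP1R15A had no match in their windows. Stretches of 5 of the 12 members with a match are shown with the motif in capitals, read 5′ to 3′ on the strand of the gene. CHAC1 (chr15:40953251-40953280), HERPUD1 (chr16:56931955-56931984) and SLC3A2 (chr11:62881725-62881748) held it in the opposite orientation, and ASNS (chr7:97872458-97872487, minus strand) and ATF3 (chr1:212565205-212565234) as written above.
CHAC1: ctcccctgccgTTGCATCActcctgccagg
HERPUD1: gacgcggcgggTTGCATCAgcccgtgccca
SLC3A2: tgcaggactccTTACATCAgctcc
ASNS: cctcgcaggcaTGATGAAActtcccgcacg
ATF3: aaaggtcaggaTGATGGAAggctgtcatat
CHAC1 had the largest change of any member with CBX7 and with each targeting ASO, comparisons that the rule for the list does not name. The ASO comparisons share their NC ASO libraries. The 250 bases before the CHAC1 start (chr15:40953221-40953470, plus strand) are therefore shown whole, again with the motif in capitals.
CHAC1 upstream: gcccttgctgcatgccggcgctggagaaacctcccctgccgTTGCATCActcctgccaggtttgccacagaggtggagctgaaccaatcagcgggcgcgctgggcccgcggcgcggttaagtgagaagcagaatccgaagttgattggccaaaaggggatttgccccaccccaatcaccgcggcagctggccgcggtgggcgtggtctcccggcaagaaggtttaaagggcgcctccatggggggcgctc

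Across the comparisons, the members moved mainly downward with TAF3 in HCT116 and with the 3 targeting ASOs, and mainly upward with CBX7 in HEK293T. A gene is called here when its adjusted p was under 0.05 (edgeR quasi-likelihood test over all genes of the table, Benjamini-Hochberg) and its log2 fold change was 0.75 or more in size. CHAC1, the γ-glutamylcyclotransferase that degrades glutathione, met the fold criterion with CBX7, with each targeting ASO and in neither mouse line. Its fall in HCT116 is named by the rule for the list and is only described.

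**Figure D1:**
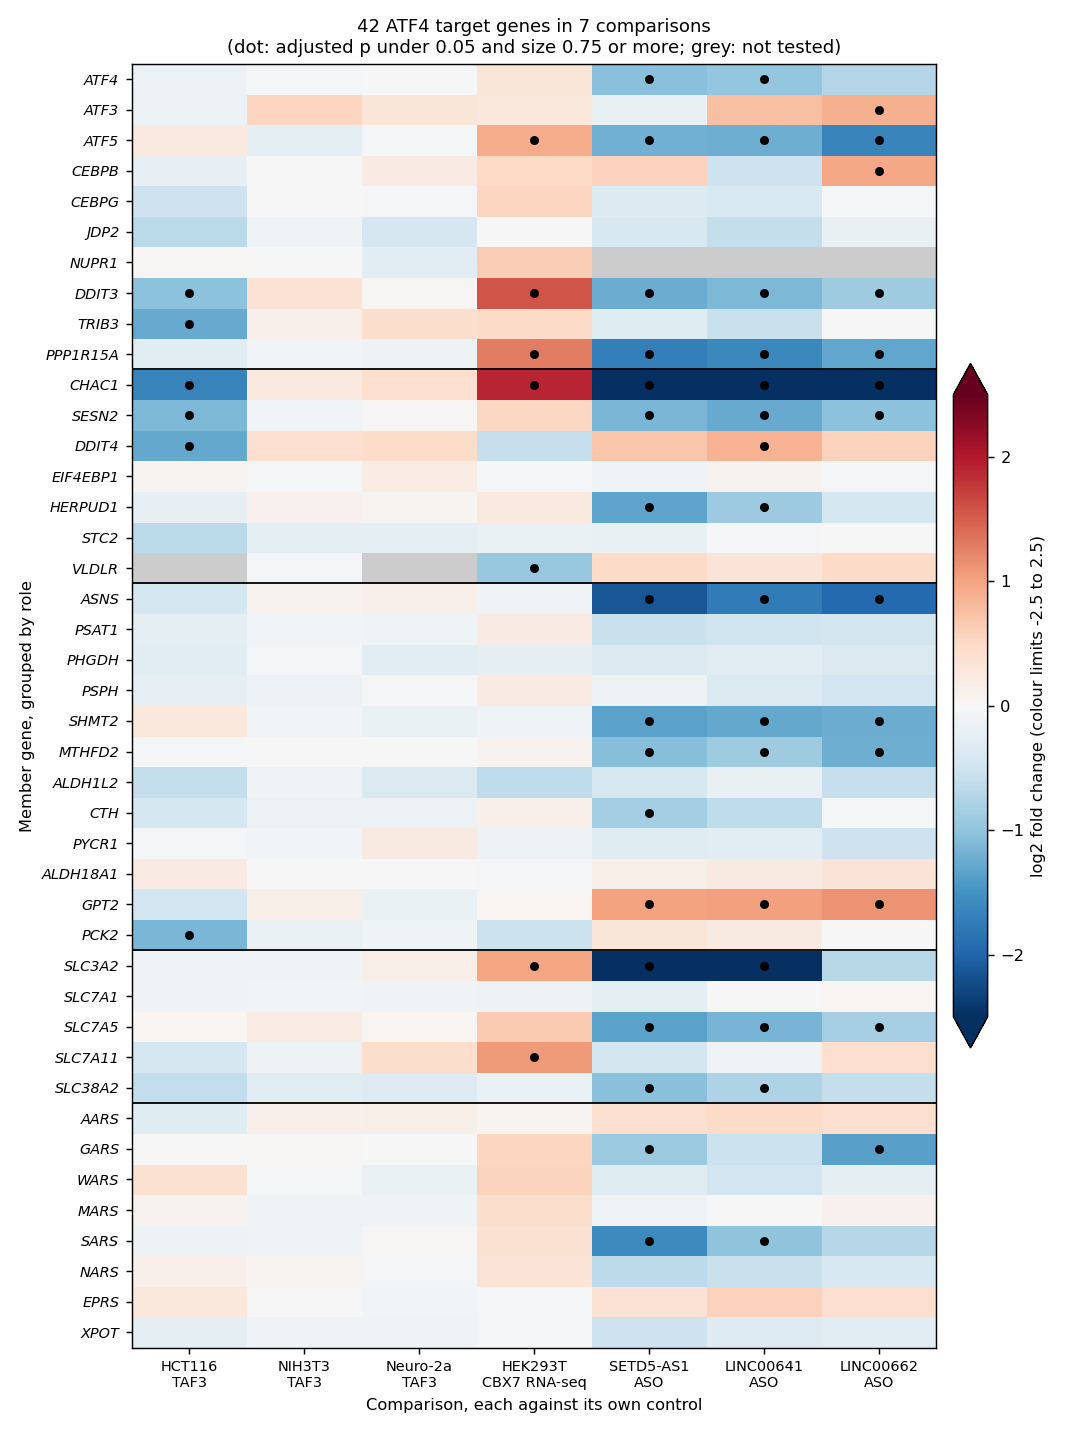
Log2 fold change (colour, limits -2.5 to 2.5) of the 42 members (rows, grouped by role) in 7 comparisons (columns, each against its own control), with dots on genes of adjusted p under 0.05 and size 0.75 or more and grey for genes not tested. The NIH3T3 and Neuro-2a columns hold no dot and the SETD5-AS1 ASO column holds 17. HCT116 holds 6 including CHAC1, whose fall there is named by the rule for the list and only described.

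With the TAF3 reader in HCT116 cells, DDIT4, TRIB3, PCK2, SESN2 and DDIT3 fell while the ATF4 groups overlapped. Of 40 members tested beside CHAC1, these 5 were called lower and none higher, where 3.28% of all 18731 genes tested were called lower and 3.34% higher. On the adjusted p alone, 21 members were lower and 5 higher, against 17% and 17.9% of all genes. In 19 members every TAF3 library was below every Control library, and in 7 it was above, where 22.2% and 22.4% of all genes were so separated. The median log2 fold change of the members was -0.21, and that of all genes tested was -0.007. VLDLR had no counts in any HCT116 library. In bulk libraries such as these, fewer cells with a transcript and less of it per cell cannot be told apart.

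CHAC1 (hg19 chr15:41245160-41248710, plus strand) stood at 23.1, 29.5 and 27.2 CPM in the Control libraries and 8.06, 9.14 and 7.98 CPM in the TAF3 libraries. Its groups were far apart, and the TAF3 mean was 31.5% of Control (log2 fold change -1.67). DDIT4 (chr10:74033678-74035794), which encodes the mTORC1 inhibitor REDD1, measured 243, 287 and 244 CPM in Control and 105, 108 and 104 CPM in TAF3 (log2 fold change -1.28, SE 0.06, adjusted p = 1.36e-20). SESN2 (chr1:28586038-28609002), the leucine-sensing sestrin that also restrains mTORC1, went from 59.1, 74.1 and 76.8 CPM to 32.6, 33.1 and 31.3 CPM (log2 fold change -1.11, SE 0.08, adjusted p = 6.99e-15). In all 3 genes the highest TAF3 library lay below the lowest Control library. TRIB3 (chr20:361261-378203), the pseudokinase that binds ATF4 and AKT, measured 46.6, 71.1 and 61.1 CPM in Control and 23.6, 26.8 and 24.1 CPM in TAF3 (log2 fold change -1.26, SE 0.10, adjusted p = 3.09e-14). DDIT3 (chr12:57910371-57914300, minus strand), encoding CHOP, measured 50.7, 58.2 and 53.1 CPM and 26, 26.4 and 27.6 CPM (log2 fold change -1.02, SE 0.08, adjusted p = 4.92e-14). These groups did not overlap either. DDIT3 overlaps the end of MARS on the other strand, and whether the counting used strand is not given in the sources used here. MARS itself had a log2 fold change of 0.08. PCK2 (chr14:24563262-24579807), the mitochondrial phosphoenolpyruvate carboxykinase, measured 71.5, 99.4 and 91.2 CPM in Control and 40.8, 41.1 and 36.1 CPM in TAF3 (log2 fold change -1.15, SE 0.08, adjusted p = 5.61e-15), again with no overlap.

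ATF4 (chr22:39915700-39918691) measured 392, 423 and 385 CPM in Control and 346, 392 and 341 CPM in TAF3. The groups overlapped, and the difference passed the adjusted p with a small size (log2 fold change -0.15, SE 0.06, adjusted p = 0.0268). ATF3, another stress-induced factor of the same family, measured 79, 76 and 72.9 CPM and 71.7, 64.9 and 68.9 CPM. All 3 TAF3 values were below all Control values, but the test was not passed (log2 fold change -0.15, SE 0.07, adjusted p = 0.0753). ASNS, the asparagine synthetase, measured 145, 217 and 210.2 CPM in Control and 148, 136 and 138 CPM in TAF3. Control replicate 1 sat among the TAF3 libraries there, and the fall was below the fold criterion (log2 fold change -0.44, SE 0.08, adjusted p = 1.87e-05). Control replicate 1 was also the lowest Control library for CHAC1, TRIB3, PCK2, SESN2 and DDIT3. DDIT4, TRIB3, PCK2, SESN2 and DDIT3 kept their calls when any 1 library was left out.

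**Figure D2:**
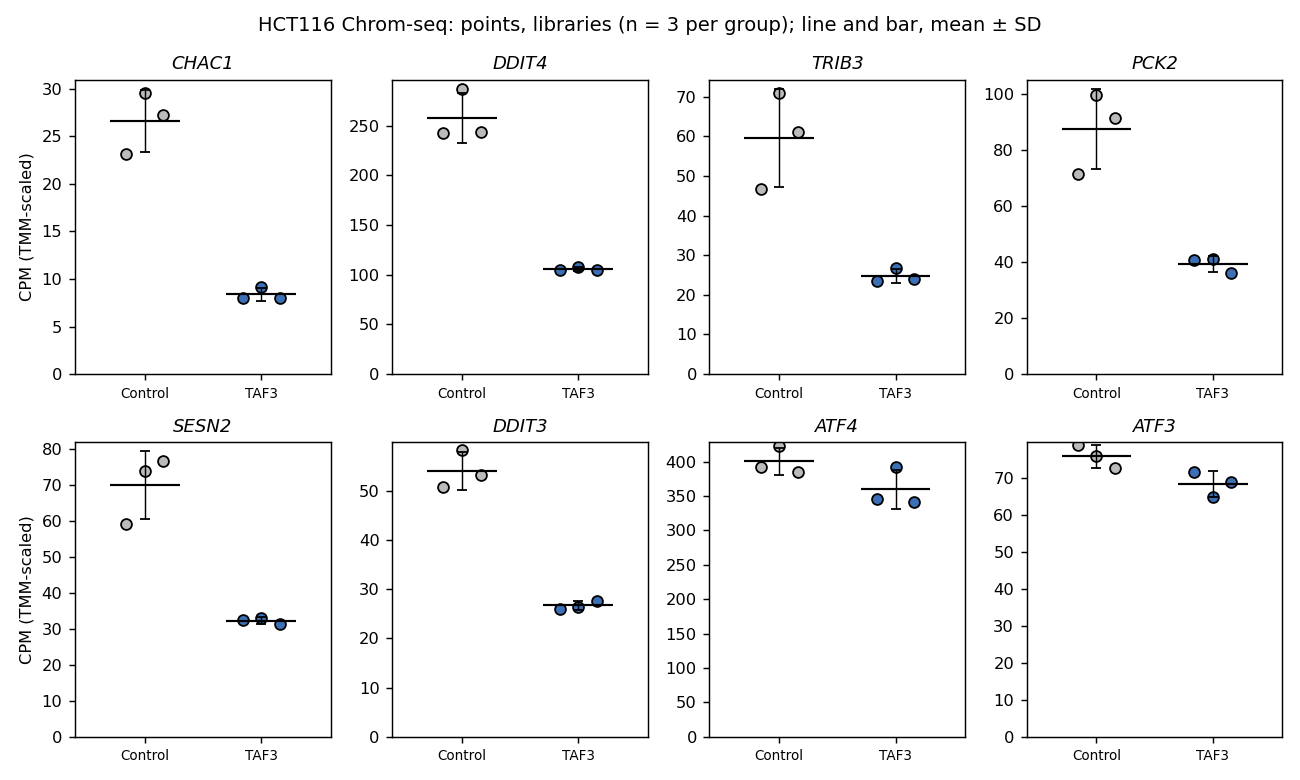
CPM (y axis, TMM-scaled) of 8 members in the HCT116 Control and TAF3 Chrom-seq libraries (points, n = 3 per group), with mean ± SD as line and bar. CHAC1, DDIT4, TRIB3, PCK2, SESN2 and DDIT3 are separated between the groups, whereas the ATF4 groups overlap.

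By role, 2 of the 5 restraint genes of growth and redox balance tested beside CHAC1 were called lower (median log2 fold change -0.67), as was 1 of 12 genes of serine, one-carbon and amino acid synthesis (median -0.25). Among the transcription factors and feedback regulators, 2 of 10 were called lower, and CEBPG (-0.52) and JDP2 (-0.67), both basic leucine zipper factors, were lower on the adjusted p alone. Neither the 5 amino acid transporters nor the 8 genes of tRNA charging and export held a call. SLC38A2, the neutral amino acid transporter SNAT2, had a log2 fold change of -0.61 and STC2, a secreted glycoprotein, of -0.67. The members higher on the adjusted p alone were WARS (0.39), SHMT2 (0.27), EPRS (0.27), ATF5 (0.25) and ALDH18A1 (0.20). In the wider pathway, 5 of 19 other genes reported as ATF4 or CHOP targets were called lower and none higher, among them KLHL24 (-1.32) and the stress cytokine GDF15 (-1.05), and 15 of the 19 were lower on the adjusted p alone. The 16 genes for the eIF2 kinases and eIF2 machinery and the 21 genes of the ATF6 and XBP1 branches of the unfolded protein response had no call. Other cytosolic aminoacyl-tRNA synthetases had 1 call in 15, FARSB, which was higher (0.75), and the 15 mitochondrial ones had none. On the adjusted p alone, 9 of these cytosolic genes were higher and 1 lower, and 7 mitochondrial ones were higher and 2 lower. The eIF2 genes had 5 higher and 1 lower and the unfolded protein response genes 4 and 3. Of all genes, 17.9% were higher and 17% lower on the adjusted p alone.

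In the mouse lines the TAF3 reader gave no called member. In NIH3T3, none of 42 members was called by edgeR or by DESeq2, although 11.1% of all 19220 genes tested were called, nearly all of them higher. On the adjusted p alone 4 members were higher and 3 lower, against 13.8% and 9.79% of all genes. In 7 members every TAF3 library was above Control and in 9 below, where 20.4% and 16.4% of all genes were so separated. The median log2 fold change was -0.05 for the members and 0.02 for all genes.

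Ddit3 measured 80.5, 93.4 and 85.3 CPM in NIH3T3 Control and 124, 111 and 97.6 CPM in TAF3. The TAF3 libraries were all above Control by a small amount (log2 fold change 0.36, SE 0.08, adjusted p = 0.00113). Atf3 measured 10.6, 11.6 and 9.45 CPM and 12.7, 19.8 and 13.2 CPM, likewise without overlap (log2 fold change 0.53, SE 0.17, adjusted p = 0.0225). Ddit4 (0.42) and Slc7a5 (0.19), a subunit of the leucine transporter LAT1, were the other members higher on the adjusted p, and Slc38a2 (-0.27), Atf5 (-0.24) and Stc2 (-0.24) were lower. Chac1 measured 36.2, 40.1 and 27.2 CPM in Control and 41.4, 44.1 and 36.9 CPM in TAF3, overlapping groups whose difference did not pass the test (log2 fold change 0.24, SE 0.11, adjusted p = 0.138). Atf4 measured 401, 372 and 440.4 CPM and 386, 373 and 409 CPM, also overlapping (adjusted p = 0.591). Trib3 measured 39.9, 44 and 43.1 CPM in Control and 46.9, 46.8 and 44.1 CPM in TAF3, and Asns 246, 257 and 264 CPM and 275, 290.1 and 253 CPM, with adjusted p = 0.37 and 0.307. Outside the members, 3 of 20 other ATF4 or CHOP targets were called higher, including the metabolic hormone gene Fgf21 (4.14) and Cbs (2.76), which encodes cystathionine β-synthase, and 1 was lower, the arginine transporter gene Slc7a3 (-0.84). No unfolded protein response gene of 21 was called. On the adjusted p alone, 9 of them were higher and none lower, where 13.8% of all genes were higher and 9.79% lower. Of 17 mitochondrial synthetase genes 1 was called, Lars2 (1.57). Neither the 15 eIF2 pathway genes nor the 15 other cytosolic synthetase genes held a call.

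In Neuro-2a, none of 41 members was called by edgeR or by DESeq2, against 1.03% of all 17006 genes tested. No member passed the adjusted p in edgeR, where 1.24% of all genes did. DESeq2 had 2 members lower on the adjusted p, and the matching share of all genes was not counted. Every TAF3 library was above Control in 2 members and below in 8, where 13.7% and 12.1% of all genes were so separated, and the median log2 fold change was -0.03 beside 0.03 for all genes. One library stood apart. TAF3 replicate 1 held the highest value of 17 members and the lowest of 11, so that 28 of 41 members had an extreme there. Of all genes tested, 62.7% did as well, against 23.6% to 33.0% in the other 5 libraries. Members were ranked on TMM-scaled CPM and all genes on counts divided by the library total, so these shares differ in scaling.

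Chac1 measured 46.3, 45.9 and 46.4 CPM in Neuro-2a Control and 99.1, 45.2 and 42 CPM in TAF3, and Ddit4 35.2, 35.1 and 39.7 CPM and 85.3, 31.5 and 35.4 CPM. For both genes TAF3 replicate 1 was above every Control library, and the other TAF3 libraries lay within or below the Control range. The log2 fold change of Chac1 was 0.42 with all libraries (SE 0.28, adjusted p = 0.49) and -0.08 without replicate 1. Trib3 measured 110.4, 91.4 and 104 CPM and 194, 109 and 110.3 CPM, and Slc3a2, the heavy chain shared by several amino acid exchangers, 358, 340.4 and 376 CPM and 529, 328 and 334 CPM. These again were highest in replicate 1, while the stress-induced chromatin protein gene Nupr1 was lowest there, with 181, 159 and 179 CPM in Control and 95.9, 174 and 160.1 CPM in TAF3. Atf4 measured 585, 527 and 569 CPM and 589, 538 and 549.7 CPM, Ddit3 266, 252 and 268 CPM and 247, 277 and 278 CPM, and Asns 405, 369.9 and 416 CPM and 381, 435 and 482 CPM, all with overlapping groups. Atf3 measured 21.2, 22.4 and 21.8 CPM in Control and 29.2, 28.2 and 22.9 CPM in TAF3, and its TAF3 libraries were all above Control without passing the test (log2 fold change 0.30, SE 0.14, adjusted p = 0.345). Without replicate 1, still no member was called, 2 were higher and 9 lower on the adjusted p alone, against 7.67% and 8.64% of all genes, and called genes rose from 176 to 620 (3.66%). None of the further pathway genes was called in this line with all libraries. A test of the TAF3 effect in Neuro-2a minus that in NIH3T3 called none of the 42 members by edgeR or DESeq2. By edgeR, 3.05% of all genes were called.

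**Figure D3:**
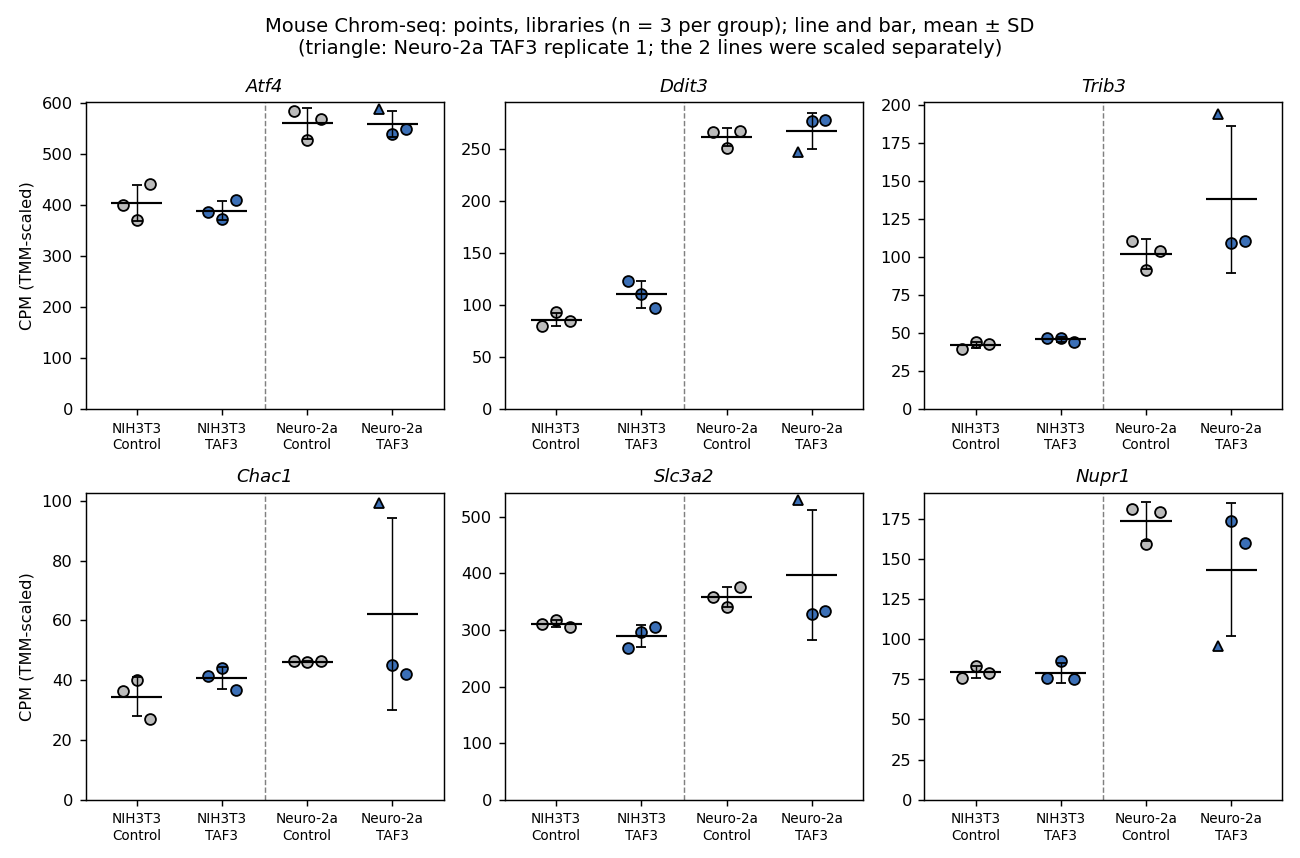
CPM (y axis, TMM-scaled per line) of 6 members in NIH3T3 and Neuro-2a Control and TAF3 Chrom-seq libraries (points, n = 3 per group), with mean ± SD as line and bar and a triangle for Neuro-2a TAF3 replicate 1. The triangle is the highest Neuro-2a value for Trib3, Chac1 and Slc3a2 and the lowest for Nupr1.

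In HEK293T RNA-seq, CHAC1, DDIT3 and PPP1R15A had the largest rises among the members in the CBX7 libraries against Control. Of 42 members tested, 6 were called higher (CHAC1, DDIT3, PPP1R15A, SLC7A11, SLC3A2 and ATF5) and 1 lower (VLDLR), where 4.17% of all 18204 genes tested were called higher and 3.48% lower. On the adjusted p alone 17 members were higher and 5 lower, against 13.8% and 15.4% of all genes. Every CBX7 library was above Control in 18 members and below in 7, where 19.6% and 22.6% of all genes were so separated, and the median log2 fold change was 0.20 beside -0.01 for all genes.

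CHAC1 stood at 0.581, 0.855 and 1.1 CPM in Control and 4.2, 2.44 and 3.29 CPM with CBX7. These values rest on 7, 12 and 17 and 35, 27 and 34 reads, and every CBX7 library was above every Control library (3.92-fold, log2 fold change 1.91, SE 0.34, adjusted p = 0.000617). DDIT3 measured 8.72, 11 and 13.1 CPM in Control and 34.8, 31.7 and 31.8 CPM with CBX7 (2.99-fold, log2 fold change 1.57, SE 0.13, adjusted p = 1.5e-06), and its neighbour MARS had a log2 fold change of 0.43. PPP1R15A (chr19:49375649-49379314), encoding GADD34, measured 125, 117 and 137 CPM and 327, 275 and 320.3 CPM (2.43-fold, log2 fold change 1.28, SE 0.09, adjusted p = 3.07e-07). The groups of these 3 genes were well separated. Among transporters, SLC3A2 (chr11:62623518-62656352) measured 141, 127 and 147 CPM and 291, 236 and 294 CPM (log2 fold change 0.98), and SLC7A11 (chr4:139085251-139163503), its partner in cystine import, had a log2 fold change of 1.06. ATF5 (chr19:50431959-50437192), an ATF4 relative that overlaps NUP62 and IL4I1 on the other strand, measured 6.56, 6.55 and 7.24 CPM and 12.7, 11.7 and 14.2 CPM (log2 fold change 0.92). VLDLR (chr9:2621834-2660053), the very low density lipoprotein receptor, was the called fall, from 15.9, 15.5 and 15.1 CPM to 7.92, 7.59 and 8.7 CPM (log2 fold change -0.94, SE 0.13, adjusted p = 9.09e-05).

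ATF4 measured 259, 316 and 274 CPM in Control and 335, 359.9 and 346 CPM with CBX7, without overlap and below the fold criterion (log2 fold change 0.29, SE 0.08, adjusted p = 0.0144). ATF3 measured 92.5, 110.3 and 92 CPM and 112, 119.7 and 121 CPM (log2 fold change 0.26, SE 0.09, adjusted p = 0.034), and TRIB3 8.47, 8.12 and 6.66 CPM and 10.6, 10.6 and 11.2 CPM (log2 fold change 0.48, SE 0.15, adjusted p = 0.0235). Both were higher in every CBX7 library than in any Control library. ASNS overlapped between the groups, at 44.7, 49.5 and 52 CPM and 42.3, 44.3 and 51.6 CPM (log2 fold change -0.08, SE 0.10, adjusted p = 0.573). By role, 3 of 10 transcription factors and feedback regulators and 2 of 5 transporters were called higher and none of 12 genes of amino acid synthesis, where 3 were lower on the adjusted p alone. None of the 8 tRNA charging and export genes was called, although 5 were higher on the adjusted p. In the wider pathway, 2 of 15 other cytosolic synthetases were called higher, AIMP2 (0.92) and CARS (0.85). CARS was also the single call among 18 other ATF4 or CHOP targets. The eIF2 pathway, unfolded protein response and mitochondrial synthetase lists held no call. On the adjusted p alone, 7 of 16 eIF2 pathway genes were higher and 1 lower, and 5 of the other cytosolic synthetases were higher and 1 lower. Of 21 unfolded protein response genes, 3 were higher and 2 lower, where 13.8% of all genes were higher and 15.4% lower.

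The ASO experiment gave the largest changes of the members. Of 41 members tested (NUPR1 had too few counts), 16 were called lower and 1 higher with SETD5-AS1 ASO, 14 and 2 with LINC00641 ASO, and 10 and 3 with LINC00662 ASO. The background was also high, since 11.5% of all genes were called lower and 12.9% higher with SETD5-AS1 ASO, 11.5% and 11% with LINC00641 ASO, and 13.3% and 11.6% with LINC00662 ASO. With library size in place of TMM scaling, the median of all genes rose to 0.17 with SETD5-AS1 ASO. The share of called genes that were lower went from 47.2% to 33.5%. The number of members called stayed at 17, although CTH lost its call. The median of the members went from -0.41 to -0.27. Members lower on the adjusted p alone went from 27 to 20 and those higher from 6 to 8. The share of all genes on the adjusted p alone was not counted there, so these counts show only a dependence on scaling. Every targeting library was below NC in 29, 27 and 24 members with SETD5-AS1, LINC00641 and LINC00662 ASO (29.3%, 33.1% and 33.1% of all genes) and above it in 4, 7 and 6 (29.8%, 32.2% and 26.7%). Median log2 fold changes of the members were -0.41, -0.50 and -0.37, beside 0.03, 0.004 and 0.001 for all genes. All 3 comparisons use the same 3 NC ASO libraries, so their results are not independent of each other and are given side by side.

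The oligonucleotides listed for the study are shown because the comparisons differ in them. They are 20 bases long, printed 5′ to 3′ with CpG dinucleotides in capitals, and which of them each library received is not stated.
SETD5-AS1-ASO-1: atcaatgaggatgtcatcac
SETD5-AS1-ASO-2: tcttgctatcatgacaatag
SETD5-AS1-ASO-3: cttaCGcaaCGgataaagcc
LINC00641-ASO-1: gatgtggagcaacagaaatg
LINC00641-ASO-2: gatagtggtatagtaactgg
LINC00662-ASO-1: tgtagtctcttatctgcacc
LINC00662-ASO-2: actctgtctcaaataacttg
LINC00662-ASO-3: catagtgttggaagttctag
ASOXNC23 (NC ASO): ttctcCGaaCGtgtcaCGtt
The NC ASO holds 3 CpG, SETD5-AS1-ASO-3 holds 2 and the other 7 hold none. In GRCh37, exact target matches of the 3 SETD5-AS1 ASOs lay in exons of SETD5-AS1 (chr3:9432018-9432037, chr3:9432087-9432106 and chr3:9432132-9432151, transcript on the minus strand), annotated as THUMPD3-AS1 in the newer gene set. Those of LINC00641-ASO-1 and LINC00641-ASO-2 lay in an exon of LINC00641 (chr14:21668966-21668985 and chr14:21668698-21668717, minus strand), and those of LINC00662-ASO-1 and LINC00662-ASO-3 in exons of LINC00662 (chr19:28284662-28284681 and chr19:28281738-28281757, minus strand). LINC00662-ASO-3 had 112 exact matches in the genome, 1 of them exonic, LINC00641-ASO-1 had 2, and LINC00662-ASO-2 and the NC ASO had none. No match lay in a member gene on the transcribed strand.

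CHAC1 stood at 13.4, 13.1 and 10.1 CPM under NC ASO, 0.415, 0.833 and 0.397 CPM under SETD5-AS1 ASO, 0.382 and 0.5 CPM under LINC00641 ASO and 1.91, 1.16 and 1.02 CPM under LINC00662 ASO. Read counts were 173, 151 and 112 under NC ASO and between 5 and 29 in the targeting libraries, every one of which was below every NC library. The targeting means were 4.49%, 3.61% and 11.2% of NC. Log2 fold changes were -4.43 (SE 0.27, adjusted p = 4.44e-10), -4.74 (SE 0.30, adjusted p = 1.38e-10) and -3.08 (SE 0.22, adjusted p = 6.59e-12). ATF4 measured 475, 449 and 454 CPM under NC ASO, 216, 204 and 247 CPM under SETD5-AS1 ASO, 224 and 239 CPM under LINC00641 ASO and 289, 251 and 249.5 CPM under LINC00662 ASO. It was lower in all targeting libraries, called with SETD5-AS1 ASO (log2 fold change -1.04, SE 0.08, adjusted p = 8.93e-09) and LINC00641 ASO (log2 fold change -0.97, SE 0.08, adjusted p = 4.94e-09), and just under the fold criterion with LINC00662 ASO (log2 fold change -0.74, SE 0.07, adjusted p = 6.21e-10), where it passed without LINC00662 replicate 1 (-0.81) or NC replicate 2 (-0.76), and with all 4 ASO groups in 1 fit (-0.80). DDIT3 was called in all 3 comparisons, at 24, 19.1 and 23.5 CPM under NC ASO, 10.2, 11.6 and 6.36 CPM under SETD5-AS1 ASO, 11.1 and 9.13 CPM under LINC00641 ASO and 11.5, 13.6 and 9.26 CPM under LINC00662 ASO (log2 fold changes -1.23, -1.12 and -0.88). MARS, which it overlaps, had -0.08, -0.01 and 0.11.

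ATF3 and TRIB3 were not called lower with any ASO. ATF3 measured 71.8, 59.7 and 81.7 CPM under NC ASO, 63.7, 56 and 68 CPM under SETD5-AS1 ASO, 119 and 118 CPM under LINC00641 ASO and 135, 128 and 115 CPM under LINC00662 ASO. It was called higher with LINC00662 ASO (log2 fold change 0.90, SE 0.09, adjusted p = 4.09e-09), reached 0.75 with LINC00641 ASO, short of the fold criterion before rounding (adjusted p = 4.98e-06) but past it without LINC00641 replicate 3 (0.76) or NC replicate 3 (0.85), and overlapped NC with SETD5-AS1 ASO (adjusted p = 0.169). TRIB3 measured 10.9, 11.1 and 13 CPM under NC ASO, 10.4, 11.2 and 6.44 CPM under SETD5-AS1 ASO, 8.17 and 7.49 CPM under LINC00641 ASO and 10.5, 10.3 and 12.9 CPM under LINC00662 ASO. Both LINC00641 libraries were below every NC library. It was not called in any comparison, with log2 fold changes of -0.31 (adjusted p = 0.158), -0.56 (adjusted p = 0.00728) and 0.01 (adjusted p = 0.95). PPP1R15A was called lower in all 3, from 303, 280.3 and 294 CPM under NC ASO to 93.8, 90.5 and 84.5 CPM under SETD5-AS1 ASO, 96.7 and 93.1 CPM under LINC00641 ASO and 134, 99.9 and 107 CPM under LINC00662 ASO. ATF5 was lower by -1.20 and -1.22 on the log2 scale with the first 2 ASOs and was among the largest falls with LINC00662 ASO, from 13.9, 17 and 20.7 CPM to 5.79, 5.2 and 4.52 CPM (log2 fold change -1.65, SE 0.16, adjusted p = 2.15e-09). CEBPB, a low-count C/EBP factor here, was called higher with LINC00662 ASO (2.79, 2.43 and 5.04 CPM against 4.01, 8.61 and 6.56 CPM, log2 fold change 0.98, SE 0.26, adjusted p = 0.00272), and the groups overlapped. Without LINC00662 replicate 2 it was not called (0.70).

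ASNS (chr7:97481430-97501854, minus strand) fell in every comparison, from 159, 171 and 176 CPM under NC ASO to 38, 40.2 and 36 CPM under SETD5-AS1 ASO, 49.3 and 49.8 CPM under LINC00641 ASO and 44.9, 44 and 36.9 CPM under LINC00662 ASO. The log2 fold changes were -2.14 (SE 0.09, adjusted p = 6.25e-12), -1.75 (SE 0.09, adjusted p = 1.22e-11) and -1.94 (SE 0.08, adjusted p = 3.9e-16). GPT2 (chr16:46918290-46965209), the mitochondrial alanine transaminase, went the other way in all 3, from 27.6, 30.2 and 29.4 CPM to 59.4, 60.5 and 55.1 CPM, 59.3 and 57.2 CPM and 62.8, 61.4 and 57.2 CPM in the same order. It was the only member called higher in every ASO comparison, at 1.01 (SE 0.09, adjusted p = 2.64e-08), 1.02 (SE 0.09, adjusted p = 2.39e-08) and 1.13 (SE 0.08, adjusted p = 1.37e-11). The mitochondrial folate enzymes SHMT2 (-1.34, -1.28 and -1.23) and MTHFD2 (-1.07, -0.89 and -1.22) were called lower in all 3, whereas PSAT1, PHGDH and PSPH of serine synthesis were called in none. CTH, the cystathionine γ-lyase, was called lower with SETD5-AS1 ASO alone (-0.86, beside -0.63 and -0.04), a call lost with library size in place of TMM scaling (-0.72).

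SLC3A2 measured 1114, 1079.8 and 1094 CPM under NC ASO, 198, 169 and 160.0 CPM under SETD5-AS1 ASO, 153 and 157 CPM under LINC00641 ASO and 788, 606 and 556 CPM under LINC00662 ASO. All targeting libraries were below NC, and the LINC00662 libraries stood between NC and the other two ASO groups. It was called with SETD5-AS1 ASO (log2 fold change -2.63, SE 0.09, adjusted p = 6.58e-13) and LINC00641 ASO (log2 fold change -2.81, SE 0.08, adjusted p = 6.06e-15) but not with LINC00662 ASO (log2 fold change -0.68, SE 0.08, adjusted p = 1.18e-07). Its partner SLC7A5 was called lower in all 3 (-1.34, -1.16 and -0.83), and SLC38A2 with SETD5-AS1 and LINC00641 ASO (-1.05 and -0.77, beside -0.60 with LINC00662 ASO). SLC7A1 and SLC7A11 held no call. Among growth regulators, SESN2 was called lower in all 3 (-1.14, -1.26 and -1.03), HERPUD1, an endoplasmic reticulum degradation factor, in 2 (-1.32 and -0.90, beside -0.44), and DDIT4 was called higher with LINC00641 ASO (log2 fold change 0.87, SE 0.08, adjusted p = 2.3e-08). For tRNA charging, GARS fell from 269, 229 and 258 CPM under NC ASO to 94.3, 85.4 and 100 CPM under LINC00662 ASO and 132, 130.4 and 133 CPM under SETD5-AS1 ASO, and SARS from 467, 517 and 469 CPM to 159.7, 153 and 166 CPM under SETD5-AS1 ASO and 237 and 241 CPM under LINC00641 ASO. The other 6 genes of this role held no call. With LINC00641 ASO, SLC38A2 lost its call without LINC00641 replicate 2 (-0.64) or NC replicate 1 (-0.72), and HERPUD1 without LINC00641 replicate 2 (-0.70). Counting over the 3 comparisons, 9 members were called lower in all of them (ATF5, DDIT3, PPP1R15A, CHAC1, SESN2, ASNS, SHMT2, MTHFD2 and SLC7A5), 6 in 2 and 1 in 1.

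**Figure D4:**
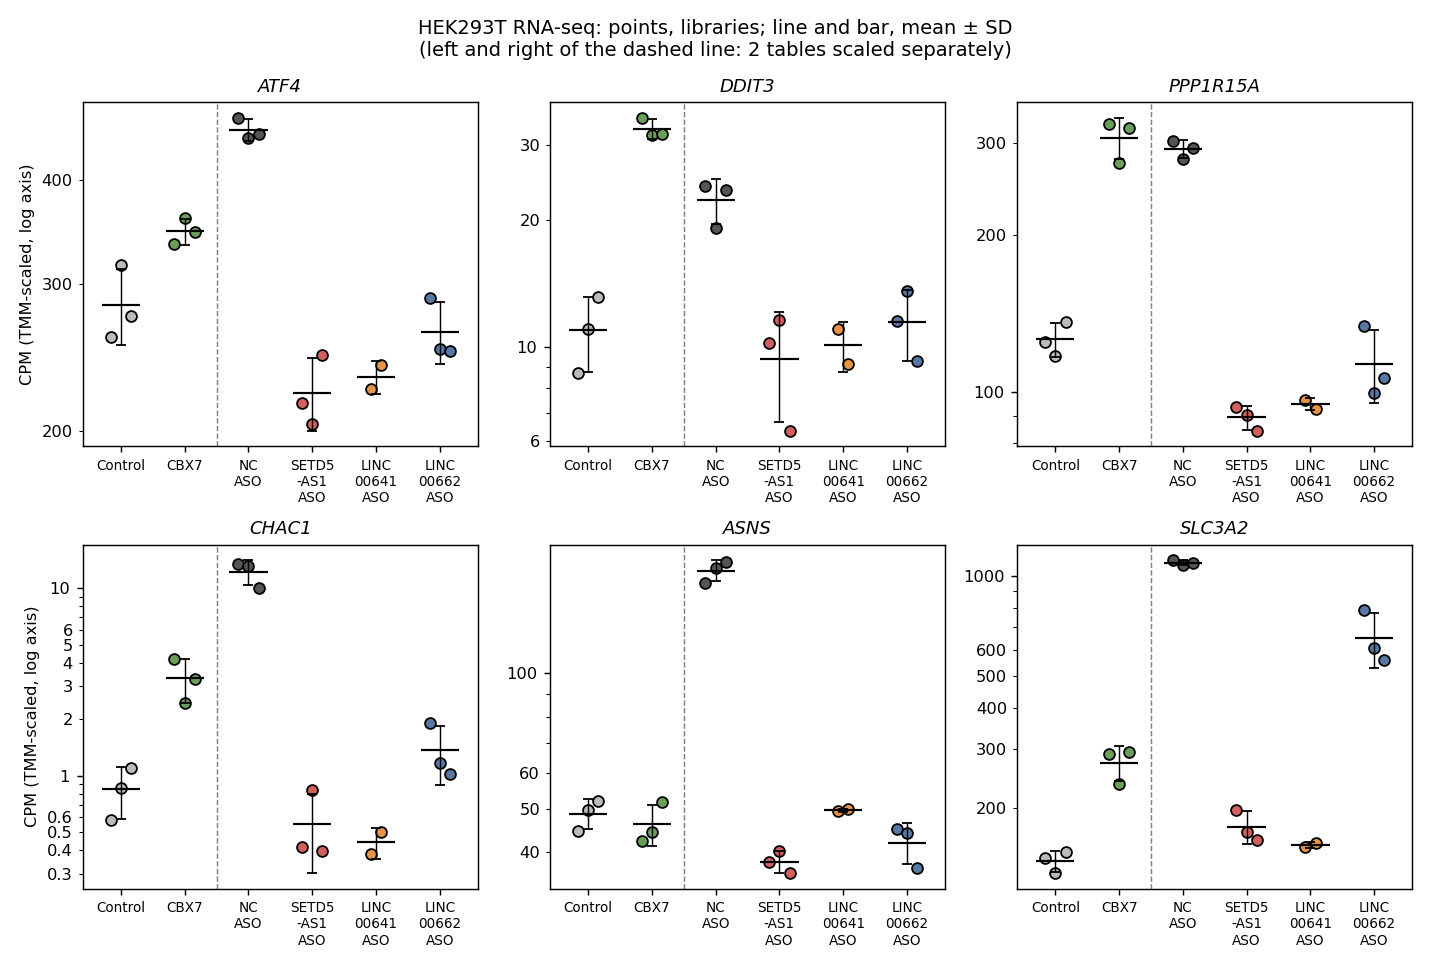
CPM (y axis, TMM-scaled, log axis) of 6 members in the HEK293T RNA-seq libraries (points), with mean ± SD as line and bar and a dashed line between the 2 tables, which were scaled separately. NC ASO libraries are above the targeting ASO libraries in all 6 panels, and the LINC00662 ASO libraries lie between them for SLC3A2.

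The wider pathway lists are given beside the shares of all genes called. With SETD5-AS1, LINC00641 and LINC00662 ASO, 11.5%, 11.5% and 13.3% of all genes were lower and 12.9%, 11% and 11.6% higher. Of 16 eIF2 pathway genes, 5, 3 and 5 were called lower with SETD5-AS1, LINC00641 and LINC00662 ASO and 1, 0 and 0 higher, with the adaptor NCK1 at -1.37 and -2.13 for the first and last and EIF2B1 at -1.32 for LINC00641 ASO. Of 21 unfolded protein response genes, 6, 5 and 2 were called lower and 0, 0 and 1 higher, with the cochaperone DNAJB9 at -1.44, -1.25 and -0.86. Of 18 other ATF4 or CHOP targets, 6, 3 and 2 were lower and 1, 1 and 3 higher, with the glutamine transporter SLC1A5 at -1.21, -1.21 and -1.19. Among 15 other cytosolic synthetases 1, 2 and 3 were lower and 1, 1 and 0 higher, and among 15 mitochondrial ones 1, 1 and 5 were lower and 1 higher in each. Several of these counts lie near the shares of all genes, and no list was tested as a set. The mitochondrial synthetases had median log2 fold changes of 0.16, 0.24 and -0.06, beside 0.03, 0.004 and 0.001 for all genes. The other lists had negative medians in each comparison.

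Set beside the HEK293T Control libraries of the CBX7 experiment, which lie in another table with its own scaling, the NC ASO libraries were themselves high in many members. Of 41 members with counts, 29 were above every Control library in every NC ASO library, 8 were below and 4 overlapped, where 31.8% of all genes were above and 32.4% below. The median log2 ratio of NC ASO to Control was 0.70 for the members and 0.003 for all genes. The ratio was 14.4 for CHAC1, 7.9 for SLC3A2, 4.33 for SLC7A5, 3.46 for ASNS, 2.03 for DDIT3 and 1.62 for ATF4, and 0.518 for GPT2. On the log2 scale, the SETD5-AS1, LINC00641 and LINC00662 ASO means lay nearer to Control than the NC ASO mean did in 35, 37 and 33 of 41 members. All 3 did so in 31 and none in 3 (PHGDH, ALDH1L2 and ALDH18A1). The matching share of all genes was not counted, so whether the members differ from other genes in this was not tested. The targeting ASO means stood at 0.781, 1.02 and 0.861 times the Control level for ASNS and 0.784, 0.819 and 0.928 times for ATF4. For CHAC1 they stood at 0.649, 0.521 and 1.61 times and for SLC3A2 at 1.27, 1.12 and 4.69 times. For PHGDH, whose NC ASO ratio was 0.813, they stood at 0.631, 0.673 and 0.602 times. No test was run across the 2 tables, which differ in transfection and experiment, and the ASO table held no library without an ASO. Lower levels under the targeting ASOs and higher levels under NC ASO cannot be told apart from these libraries.

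Comparisons among the targeting ASOs do not use the NC libraries, although each shares libraries with the others. LINC00662 ASO against SETD5-AS1 ASO had 7 members called higher and none lower, where 2.5% of all genes were called higher and 8.57% lower. SLC3A2 differed most (log2 fold change 1.89, SE 0.11, adjusted p = 2.78e-10), followed by CHAC1 (log2 fold change 1.30, SE 0.46, adjusted p = 0.0375) and ATF3 (log2 fold change 1.02, SE 0.08, adjusted p = 3.53e-08), and HERPUD1, SARS, SLC7A11 and CTH were the others. LINC00662 ASO against LINC00641 ASO had 3 higher, SLC3A2 (log2 fold change 2.07, SE 0.11, adjusted p = 4.7e-11), CHAC1 (log2 fold change 1.61, SE 0.52, adjusted p = 0.0305) and CEBPB (log2 fold change 1.43, SE 0.29, adjusted p = 0.00128), and 1 lower, GARS (log2 fold change -0.87, SE 0.07, adjusted p = 2.72e-08), where 2.25% of all genes were higher and 6.15% lower. SETD5-AS1 ASO against LINC00641 ASO had 1 higher, CEBPB (log2 fold change 1.10, SE 0.25, adjusted p = 0.0201), and 1 lower, ATF3 (log2 fold change -0.92, SE 0.09, adjusted p = 3.37e-05), where 1.04% and 0.682% of all genes were called. CHAC1 did not pass between the SETD5-AS1 and LINC00641 ASOs, with an SE that leaves a wide range (log2 difference 0.32, SE 0.63, adjusted p = 0.838). The CHAC1 differences rest on 5 to 29 reads per library, and with DESeq2 neither passed the adjusted p. The first lost its call without LINC00662 replicate 1 (0.97) or 2 (1.40) or SETD5-AS1 replicate 1 (1.15) or 3 (1.11), and the second without LINC00641 replicate 2 (1.44) or 3 (1.82) or LINC00662 replicate 1 (1.29). Without LINC00662 replicate 1, CTH (0.68) and SLC7A11 (0.71) were not called against SETD5-AS1 ASO either, nor were CTH (0.68) and HERPUD1 (0.71) without SETD5-AS1 replicate 2. CEBPB lost its call against LINC00641 ASO without SETD5-AS1 replicate 2 (1.00) or LINC00641 replicate 2 (1.06) or 3 (1.15).

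Counts of calls are given for members with a CARE match beside those of matched members without it. With TAF3 in HCT116, 5 of 21 tested without the motif were called lower, and CHAC1 aside, no member with it was called. With CBX7, 2 of 12 and 3 of 22 were called higher. With SETD5-AS1, LINC00641 and LINC00662 ASO, 5, 4 and 3 of 12 with the motif were called lower, and 10, 9 and 6 of 22 without it. These are descriptions of counts, and the windows cover only the 300 bases around a start.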

How the data were processed

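The authors deposited raw read counts per gene (unit: counts) for Chrom-seq and RNA-seq libraries. The submitters' processing notes name FastQC 0.11.8, fastp 0.23.1, HISAT2 2.1.0, featureCounts 2.0.1 and DESeq2 1.34.0, and the tables use hg19 and mm10. Gene length in the tables is the whole span of the gene, so intronic reads may be counted, and strand use is not given in the sources used here. Levels were therefore not compared between genes. Of 47 libraries listed, 35 were used, and the 12 HEK293T Chrom-seq libraries are not used here. Members and gene lists were chosen with earlier results of these data known. All 42 members are accounted for. ATF4, DDIT3, ATF3, TRIB3, CHAC1 and ASNS were given in every library, called members were named in each comparison, with full statistics for at most the 3 largest rises and falls, and at most 2 genes per direction were named from each further list.

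Genes with a mean of more than 3 counts per library in a comparison were tested with edgeR 4.0.16 (R 4.3.3; TMM scaling, quasi-likelihood test, two-sided, Benjamini-Hochberg over all genes tested), with the libraries of the compared groups only. Genes were called below 0.05 after that adjustment where the log2 fold change was also at least 0.75 in size. SE is the log2 fold change divided by the square root of the quasi-likelihood F and is approximate. Total counts of 8258859 to 17558305 set the precision. The fits were tested on simulated negative binomial counts. Changed genes were drawn only from genes with a higher mean count than the filter asks, so recovery for members with few counts was not measured. Each gene had the same dispersion in all libraries, so a library that stands apart, as in Neuro-2a, was not simulated. With 3 libraries against 3 in HCT116, 92 of 100 genes changed by 1 log2 unit and 100 of 100 changed by 2 were called. Of 100 genes changed by 1, 77 were called in NIH3T3, 78 in Neuro-2a and 52 for the difference between these lines, and of 100 changed by 2, 94, 94 and 80. DESeq2 1.42.0, other scalings and filters, a replicate block and leaving out each library were the alternatives. Replicate numbers were not shown to pair libraries. No libraries agreed within sampling noise. ASO sequences came from the study's oligonucleotide list, promoter windows from RefSeq, and ASO matches from GRCh37 with the GENCODE v44 lifted annotation.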

Additional observations from a re-analysis of the deposited data

Results flagged for a closer look

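These results are shown because the effects of 2 ASOs on the same gene differed by a test of the difference itself (edgeR, adjusted over all genes), and no explanation was tested. With LINC00662 ASO against SETD5-AS1 ASO, the log2 differences were 1.89 for SLC3A2, 1.30 for CHAC1, 1.02 for ATF3, 0.82 for HERPUD1, 0.82 for SARS, 0.81 for SLC7A11 and 0.76 for CTH. For SLC3A2 all 3 LINC00662 libraries were above all 3 SETD5-AS1 libraries. Against LINC00641 ASO, LINC00662 ASO differed by 2.07 for SLC3A2, 1.61 for CHAC1, 1.43 for CEBPB and -0.87 for GARS. SETD5-AS1 ASO against LINC00641 ASO differed by 1.10 for CEBPB and -0.92 for ATF3. CEBPB had under 10 CPM in every ASO library.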

How the results depend on the processing

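Without CHAC1, the number of members called was 5 with TAF3 in HCT116, and each kept its call leaving out any 1 library. In the other comparisons CHAC1 is included. The number called was 7 with CBX7 (7 to 9 leaving out 1 library), 17 with SETD5-AS1 ASO (17 to 18), 16 with LINC00641 ASO (14 to 17) and 13 with LINC00662 ASO (12 to 15). It was 7 for LINC00662 against SETD5-AS1 ASO (4 to 7), 4 for LINC00662 against LINC00641 ASO (3 to 4) and 2 for SETD5-AS1 against LINC00641 ASO (1 to 2). It was 0 in NIH3T3, in Neuro-2a and for their difference, also leaving out any 1 library. The 4 came without LINC00662 replicate 1, and the 1 came without LINC00641 replicate 2, LINC00641 replicate 3 or SETD5-AS1 replicate 2. Where a group was left with 1 library, that library is assumed to vary like the others. Under the other alternatives (DESeq2, DESeq2 size factors, library size, no filter, filterByExpr, the replicate block and all 4 ASO groups in 1 fit) every count stayed within 1.5 times its value. Over all genes, calls in Neuro-2a went from 176 to 402 with DESeq2, 516 with no filter and 620 without TAF3 replicate 1, and to 44, 41 and 45 without Control replicate 1, 2 or 3, 73 without TAF3 replicate 2 and 106 without TAF3 replicate 3, and the lower share of calls for SETD5-AS1 against LINC00641 ASO went from 39.6% to 28.2% with library size.

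Of 1483 values of named members under an alternative, 1425 kept their direction and side of the threshold, 25 lost the call, 8 gained one and 25 changed sign, none of the latter from a called value. With library size ATF4 was 0.000495 in NIH3T3 and 0.0534 in Neuro-2a, with filterByExpr ATF4 was 0.0125 in Neuro-2a and TRIB3 -0.00137 with LINC00662 ASO, and TRIB3 was -0.0525 there with all 4 groups in 1 fit. Leaving out 1 library at a time, the log2 fold change ran from -0.105 to 0.0186 for ATF4 in NIH3T3, and in Neuro-2a from -0.0464 to 0.0281 for ATF4, -0.0822 to 0.642 for CHAC1 and -0.0105 to 0.0857 for DDIT3. It ran from -0.0932 to 0.0943 for TRIB3 with LINC00662 ASO, and between SETD5-AS1 and LINC00641 ASO from -0.287 to 0.115 for DDIT3 and -0.119 to 0.525 for CHAC1. For Neuro-2a minus NIH3T3 it ran from -0.029 to 0.0998 for ATF4, -0.0624 to 0.115 for ASNS, -0.0158 to 0.438 for TRIB3 and -0.33 to 0.381 for CHAC1. CHAC1 lost its call between LINC00662 and SETD5-AS1 ASO with DESeq2 (adjusted p = 0.0656) and without any of 4 libraries in turn (0.0511 to 0.183), and between LINC00662 and LINC00641 ASO with DESeq2 (0.0659) and without any of 3 libraries (0.0883 to 0.148). With library size CTH lost its call with SETD5-AS1 ASO (-0.72) and for LINC00662 against SETD5-AS1 ASO (0.72), SLC38A2 lost it with LINC00641 ASO (-0.70), and ATF3 gained one there (0.82, and 0.75 with no filter). With all 4 ASO groups in 1 fit, ATF4 gained a call with LINC00662 ASO (-0.80). The causes were not tested.

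Same-numbered libraries were not shown to be paired, since the correlation of their deviations ran from -0.052 to 0.132. With the replicate number as a replicate block, 7 members were called with CBX7 and 17 with SETD5-AS1 ASO, and the HCT116 calls beside CHAC1 were kept. The block changed 3 calls of named members, SLC38A2 (-0.71) and ATF3 (0.77) with LINC00641 ASO and CHAC1 between LINC00662 and LINC00641 ASO (1.29, adjusted p = 0.129). Comparisons planned for HEK293T Chrom-seq, TAF3 against its control and CBX7 against dPC, and the TAF3 effect in HCT116 minus HEK293T were not run. Depth limits members with few counts, such as NUPR1, which could not be tested in the ASO table, and CHAC1, with 5 to 29 reads in each targeting library.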
